A study of Mus musculus with 8 samples.

Results

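The miR-181 family was followed in exosomes (small vesicles shed by cells) isolated from mouse amniotic fluid. Its members were taken by name from the probe annotation of the array: the 4 miRNAs cut from the 5′ arm of the miR-181 hairpins (mmu-miR-181a-5p, mmu-miR-181b-5p, mmu-miR-181c-5p and mmu-miR-181d-5p) and 3 from the 3′ arm, also called star arms (mmu-miR-181a-1-3p, mmu-miR-181a-2-3p and mmu-miR-181c-3p). All 7 were on the array, among 1881 mouse miRNAs. The array also carried 3 further 3′ arms of the family, miR-181b-1-3p, miR-181b-2-3p and miR-181d-3p. The family was chosen by the measured difference between the sample groups, in which miR-181b-5p and miR-181d-5p had already stood out. For that reason the differences of its members in that contrast are given here as a description. Counts of members past a p threshold are also given further on, and nothing about the family is read from them.

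The series holds 8 single-colour arrays, 1 per sample, in a pair of groups. The LPS group (n = 4) comes from mice injected into the peritoneum with lipopolysaccharide, the inflammatory component of the bacterial outer membrane, on day 14 of pregnancy, at a dose of 100 μg/kg, with preterm birth about 48 h later. The cesarean group (n = 4) serves as the control, and whether those mice were injected is not stated in the labels. Every sample carries the label day 17, which an injection on day 14 and birth 48 h later does not match, so it is unclear from the labels whether both groups had reached one gestational age. No strain or genotype is given, and nothing says that replicates were separate animals, so the spread between arrays may be technical in part. No list of miRNAs that define amniotic fluid or exosomes was used, so the labelled material was not checked against markers.

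miRNAs pair through their seed, bases 2 to 8 from the 5′ end, with sites in messenger RNAs, whose translation and stability they lower. The miR-181 family is known for its part in lymphocyte development, where miR-181a tunes the sensitivity of the T cell receptor, and miR-181b is known to dampen NF-κB signalling in endothelium by targeting importin-α3. The family is also well expressed in brain. In most tissues the 5′ arm is the one that accumulates, and the 3′ arm is largely discarded.

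The 4 members of the 5′ arm have a common seed and differ in the rest of the molecule, which is the part that the array probes read. Their mature sequences, from RefSeq (GRCm38.p6), are printed 5′ to 3′ with the seed in capitals, to show how little separates them.

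miR-181a-5p: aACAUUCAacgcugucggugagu

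miR-181b-5p: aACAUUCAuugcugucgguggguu

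miR-181c-5p: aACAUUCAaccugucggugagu

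miR-181d-5p: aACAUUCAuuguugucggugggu

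Counted from the 5′ end, miR-181a-5p and miR-181b-5p differ by A9U, C10U and A21G (the base of miR-181a-5p first), and miR-181b-5p has 1 more base. miR-181c-5p has no substitution against miR-181a-5p and lacks its base 11. miR-181b-5p and miR-181d-5p differ by the single substitution C12U (the base of miR-181b-5p first) and by 1 extra base in miR-181b-5p. Of the 1881 array miRNAs, 1608 have a sequence in the RefSeq table, and of those the 4 members were the only ones with the seed ACAUUCA. The star arms do not have that seed. miR-181a-1-3p and miR-181c-3p have the seed CCAUCGA in common, and that of miR-181a-2-3p is CCACCGA.

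miR-181a-1-3p: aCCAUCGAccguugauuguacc

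miR-181a-2-3p: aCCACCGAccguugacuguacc

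miR-181c-3p: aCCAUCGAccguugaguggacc

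The family is made from 6 hairpins in 3 pairs. On GRCm38.p6, Mir181a-1 (137966455 to 137966541) and Mir181b-1 (137966639 to 137966718) lie 97 bases apart on chromosome 1, in no other annotated gene. On chromosome 2, Mir181a-2 (38852735 to 38852810) and Mir181b-2 (38853830 to 38853918) are 1019 bases apart and lie within the bounds of the protein-coding gene Nr6a1 and the long non-coding RNA Nr6a1os. On chromosome 8, Mir181d (84178716 to 84178787) and Mir181c (84178873 to 84178961) are 85 bases apart, in no other annotated gene. The mature miR-181a-5p and miR-181b-5p come from both the chromosome 1 and the chromosome 2 copies, and the array cannot tell these sources apart. By the positions in the array files (build mm9), the longer miR-181b-5p probe matches chromosome 1 at 139863236 to 139863249 and chromosome 2 at 38709374 to 38709387. The longer miR-181a-5p probe matches chromosome 1 at 139863054 to 139863067 and chromosome 2 at 38708270 to 38708283. The longer probe of miR-181d-5p is placed on chromosome 8 at 86702628 to 86702643, and that of miR-181c-5p on the same chromosome at 86702792 to 86702809, spans that are 1 base shorter than the probes.

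Each 5′ member was read by 2 probes, which pair mainly with the part of the miRNA on the 3′ side of the seed. The longer probe of each tested member is printed 5′ to 3′. Capitals mark the bases that would not pair with another tested member. That member is miR-181b-5p for the probes of miR-181a-5p and miR-181d-5p, and miR-181d-5p for the probe of miR-181b-5p.

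miR-181a-5p probe: acTcaccgacagcG

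miR-181b-5p probe: acccaccgacaGca

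miR-181d-5p probe: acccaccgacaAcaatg

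The probe of miR-181b-5p (14 bases) had 1 mismatch with miR-181d-5p, and that of miR-181d-5p (17 bases) had 1 mismatch with miR-181b-5p. The probe of miR-181a-5p (14 bases) had 2 mismatches with miR-181b-5p and 2 with miR-181c-5p, both of the latter at its 3′ end, which left a run of 12 paired bases. The shorter probes of miR-181a-5p and miR-181b-5p (13 bases each) had 1 mismatch with the other's miRNA. All mismatches were counted without gaps. The longer probe of miR-181c-5p (19 bases) had at least 5 mismatches with every other member, and the shorter (18 bases) at least 4. Since miR-181c-5p differs from miR-181a-5p only by lacking base 11, the mismatches of these probes with miR-181a-5p come from the shift at that base. How far a probe read its relatives as well was not tested.

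Signals are given as log2 of the background-subtracted signal after scaling between arrays, with low values raised to a floor of 3.75, the typical weakest signal well above background. A miRNA stands by its brightest probe, so levels are compared between arrays and not between miRNAs. Of the 7 members, 3 were well above background on all 8 arrays (miR-181a-5p, miR-181b-5p and miR-181d-5p), and these are the 3 members among the 470 miRNAs tested, which were well above background on at least 3 arrays of a group. miR-181c-5p was measured on some arrays, and the 3 star arms on none.

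mmu-miR-181b-5p, the member linked to NF-κB signalling, had the largest difference in the family. On the cesarean arrays it read 7.07, 6.76, 6.41 and 6.67 for replicates 1 to 4, and on the LPS arrays 5.08, 4.80, 5.62 and 4.88. The groups did not overlap, and the lowest cesarean array stood 0.79 above the highest LPS array. The means were 6.73 ± 0.27 and 5.09 ± 0.37 (SD, n = 4 each), a difference of -1.63 ± 0.26 (SE of the limma fit), so that the LPS signal was 32.2% of the cesarean signal. Both SDs were far smaller than the difference. Among the 470 differences it was the third lowest, with 25 miRNAs below -1.

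mmu-miR-181d-5p, its close relative from chromosome 8, gave the next largest difference. It read 6.95, 6.28, 5.97 and 6.14 on cesarean replicates 1 to 4, and 5.20, 4.36, 5.52 and 4.70 on LPS replicates 1 to 4. The groups did not overlap here either, with a gap of 0.44, although LPS replicates 1 and 3 came nearer to the cesarean arrays than the others did. The means were 6.33 ± 0.43 and 4.95 ± 0.52 (SD, n = 4 each), a difference of -1.39 ± 0.32 (SE), which left 38.2% of the cesarean signal.

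mmu-miR-181a-5p, the member best known from T cells, differed less. Its cesarean values were 5.99, 6.53, 5.87 and 6.46, and its LPS values 5.07, 5.17, 5.66 and 5.15, for replicates 1 to 4. The LPS array nearest to the cesarean ones, replicate 3, lay 0.22 below the lowest of them, so the groups were apart by less than either SD. The means were 6.22 ± 0.33 and 5.26 ± 0.27 (SD, n = 4 each), and the difference was -0.96 ± 0.25 (SE), or 51.6% of the cesarean signal.

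mmu-miR-181c-5p, which shares a hairpin pair with miR-181d-5p, lay near the floor. It was well above background on cesarean replicates 1 and 2, at 4.57 and 4.46, and on LPS replicate 3, at 3.99. The other 5 arrays lay between 3.75 and 3.84, so the groups overlapped, and it was not among the miRNAs tested. By the scanner software's own call it was detected on 3 of 4 cesarean arrays and 2 of 4 LPS arrays. At this signal no difference between the groups could be measured.

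**Figure D1:**
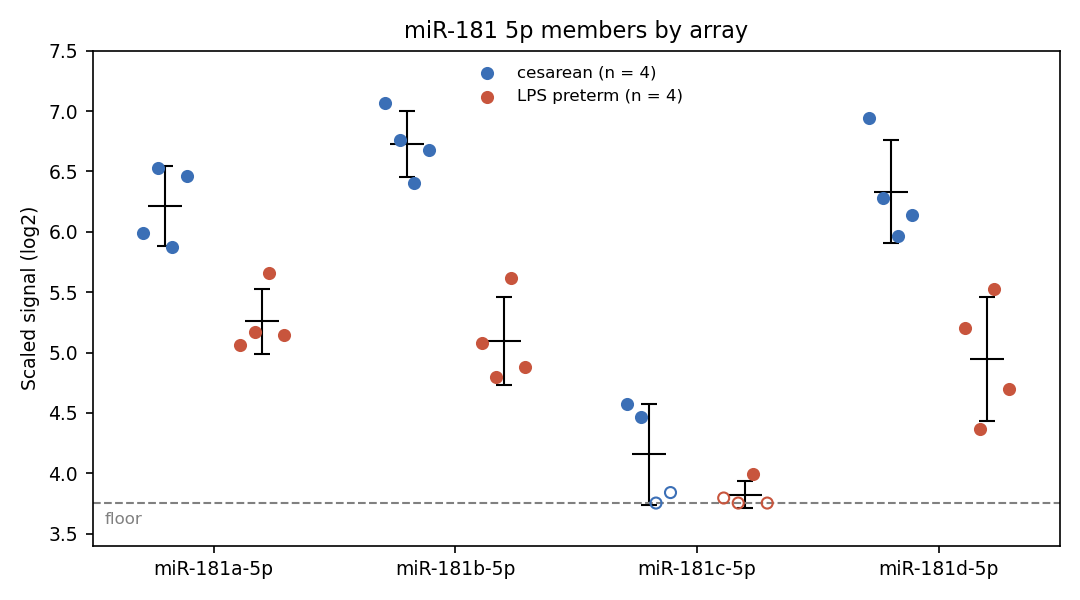
Scaled log2 signal of the 4 members of the 5′ arm on each of the 8 arrays, in blue for cesarean and red for LPS (n = 4 each). Filled points were well above background, open points were not, black bars give mean and SD, and the dashed line is the floor of 3.75. The groups are apart for miR-181a-5p, miR-181b-5p and miR-181d-5p, and miR-181c-5p sits at or near the floor on most arrays.

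The star arms gave no usable signal in either group. The highest scaled signal, on the linear scale, of any probe on any array was 5.75 for miR-181a-1-3p and 2.42 for miR-181c-3p, with miR-181a-2-3p lower than either, while the weakest signal well above background ran from 7.90 to 15.4 over the arrays. The 3 further star arms on the array, miR-181b-1-3p, miR-181b-2-3p and miR-181d-3p, were also not well above background on any of the 8 arrays, with highest signals of -0.38, 0.17 and 2.66. The scanner software detected none of these 6 on any array. The 4 probes of miR-181a-2-3p reach 3 bases past the 3′ end of the RefSeq mature form, and those of the other 2 listed star arms pair in full. A star arm that is not well above background has only an upper limit here, and whether it differed between the groups cannot be read from these arrays.

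The 2 probes of each tested member gave nearly the same difference. For miR-181b-5p they gave -1.63 (14 bases) and -1.70 (13 bases), for miR-181d-5p -1.39 (17 bases) and -1.46 (16 bases), and for miR-181a-5p -0.96 (14 bases) and -0.85 (13 bases). The shorter miR-181a-5p probe was well above background on only 1 LPS array of 4, so its value leans on the floor. Each probe was printed on the array many times: the brighter miR-181b-5p probe had 12 to 15 usable spots per array, whose coefficient of variation ran from 3.07% to 17.4%, that of miR-181d-5p had 14 to 15 spots with 3.92% to 16.7%, and that of miR-181a-5p had 14 to 15 spots with 6.13% to 24.1%. Since the 2 probes of a member measure one and the same RNA, they are not replicates.

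**Figure D2:**
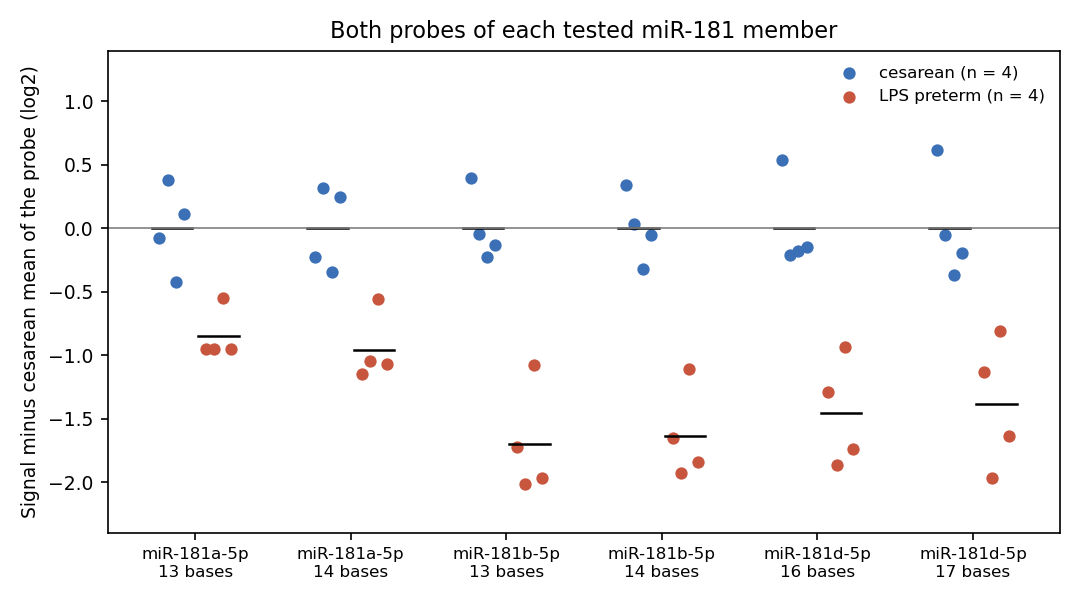
Log2 signal of the 6 probes of miR-181a-5p, miR-181b-5p and miR-181d-5p on each array, minus the cesarean mean of that probe, in blue for cesarean and red for LPS (n = 4 each); black bars are group means and labels give the probe length. Every LPS point of the miR-181b-5p and miR-181d-5p probes lies below the cesarean points of the same probe, with LPS means from -1.39 to -1.70.

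Of the 3 tested members, 2 (miR-181b-5p and miR-181d-5p) had a Benjamini-Hochberg adjusted p under 0.05 and were lower with LPS in the limma fit over the 470 miRNAs, in which 2.34% of all miRNAs were called lower and 4.89% in either direction. All 3 had a lower mean with LPS, as did 54.5% of all tested miRNAs. All 3 had groups that did not overlap, lower with LPS, against 7.23% of all tested miRNAs. The median difference of the 3 was -1.39, beside -0.06 over all 470. Since the family was chosen with this contrast in view, and since only 3 of the 7 members could be tested, nothing is read from these shares. With the slide column as a block 0 members passed. Without LPS replicate 1 all 3 members passed, and without any other single array miR-181b-5p alone did.

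**Figure D3:**
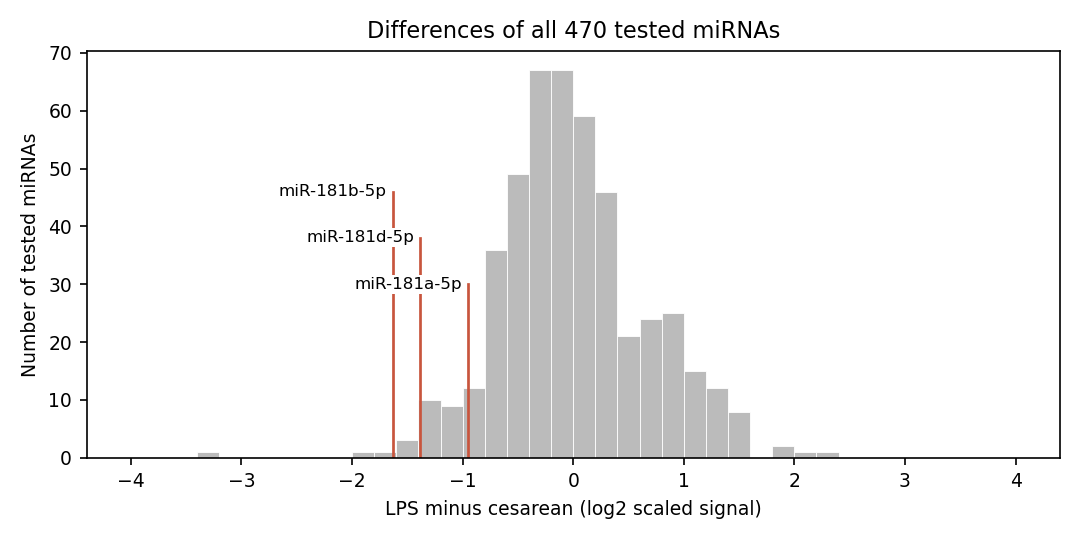
Number of tested miRNAs (n = 470) by their difference, LPS minus cesarean, in log2 scaled signal, with lines at the 3 tested members of the family. miR-181b-5p (-1.63), miR-181d-5p (-1.39) and miR-181a-5p (-0.96) all lie in the lower tail, and the median of all miRNAs is -0.06.

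Within the groups, miR-181b-5p lay on the same side of its group mean as miR-181d-5p on 6 of 8 arrays and as miR-181a-5p on 6 of 8, while miR-181a-5p and miR-181d-5p did so on 4 of 8. LPS replicate 3 had the highest level of all 3 tested members in its group, by 0.40 above the group mean for miR-181a-5p, 0.52 for miR-181b-5p and 0.58 for miR-181d-5p. LPS replicate 2 was lowest for miR-181b-5p and miR-181d-5p, at -0.30 and -0.58. Among the cesarean arrays, replicate 3 was lowest for all 3, between -0.32 and -0.37, and replicate 1 was highest for miR-181b-5p (0.34) and miR-181d-5p (0.61) but lay at -0.22 for miR-181a-5p. The patterns of miR-181b-5p and miR-181d-5p lay closest together, with a root mean square difference of 0.18 between their deviations from the group means over the 8 arrays, against 0.27 for miR-181a-5p with miR-181b-5p and 0.44 for miR-181a-5p with miR-181d-5p. The closest pair is also the pair whose probes are a single mismatch apart, and its part in the likeness was not tested. By the same within-group measure, the 5 miRNAs outside the family named below lay between 0.29 and 0.33 from miR-181b-5p. The 0.27 of miR-181a-5p was close to these, so a distance of that size was not particular to the family.

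The arrays differed in brightness before scaling. The 75th percentile of the signal was 448 and 349 on cesarean replicates 1 and 2, 214 and 226 on cesarean replicates 3 and 4, and 228, 257, 407 and 211 on LPS replicates 1 to 4. Among the bright arrays (above 300), the single LPS array read 5.62 for miR-181b-5p and the lower of the 2 cesarean arrays 6.76, a difference of means of -1.30. Among the dim arrays, the 3 LPS arrays reached at most 5.08 and the 2 cesarean arrays at least 6.41, a difference of -1.62. For miR-181d-5p the values were -1.09 and -1.30, and for miR-181a-5p -0.61 and -1.04. These are values of the contrast by which the family was chosen, the bright side has 1 LPS array, and the part of brightness in the difference was not tested. Level and brightness went together in part. Among the cesarean arrays, miR-181b-5p and miR-181d-5p ranked in the order of brightness. They ran from 7.07 and 6.95 on replicate 1 to 6.41 and 5.97 on replicate 3. LPS replicate 3, the brightest of its group, was highest for all 3 members. LPS replicate 2, the next brightest, was lowest for miR-181b-5p and miR-181d-5p. miR-181a-5p lay at -0.22 from its group mean on the brightest array, cesarean replicate 1, and at 0.25 on the dim cesarean replicate 4.

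**Figure D4:**
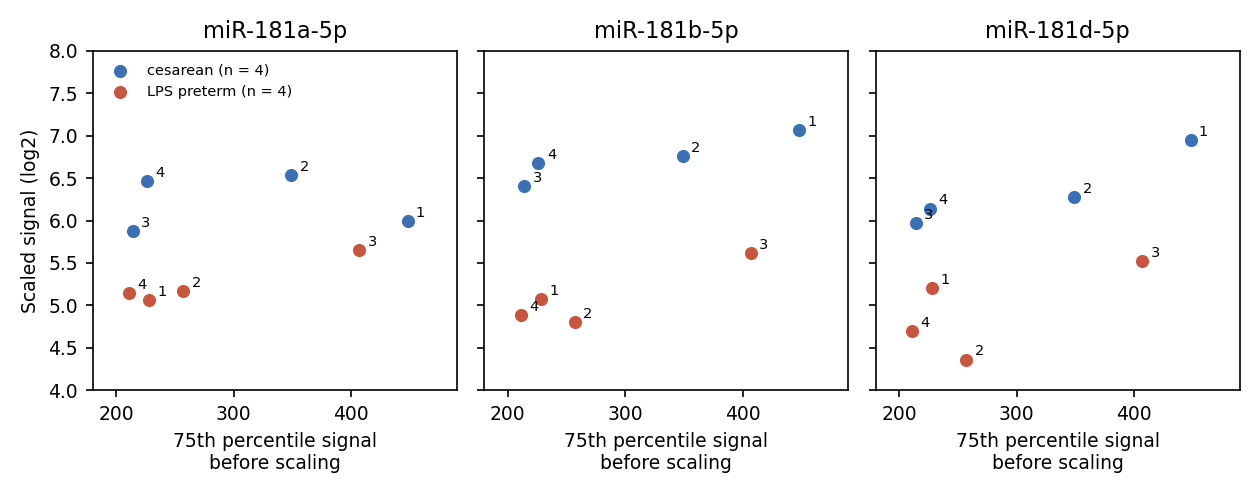
Scaled log2 signal of miR-181a-5p, miR-181b-5p and miR-181d-5p (vertical) against the array's 75th percentile signal before scaling (horizontal, linear), in blue for cesarean and red for LPS, with replicate numbers. The arrays above 300 are cesarean replicates 1 and 2 and LPS replicate 3, where miR-181b-5p read 7.07, 6.76 and 5.62, and the other 5 lie between 211 and 257.

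The 8 arrays shared 1 slide. Its first row held the LPS samples and its second row the controls, so slide row and group cannot be told apart. Bulk samples also cannot tell fewer vesicles of a given source from less miRNA per vesicle.

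Of the miRNAs outside the family, those with the pattern most like that of miR-181b-5p were miR-1931, miR-7667-3p, miR-218-5p, miR-196a-5p and miR-130b-3p. The measure was the root mean square difference over the 8 arrays after each miRNA was centred on its own mean, which was 0.35, 0.35, 0.36, 0.38 and 0.39 for these 5, against 0.22 for miR-181d-5p, 0.43 for miR-181a-5p and a median of 0.95 over all tested miRNAs. By the same measure miR-181a-5p ranked behind all 5. Their own differences were -1.40 ± 0.31 for miR-1931, -1.41 ± 0.20 for miR-7667-3p, -1.24 ± 0.30 for miR-218-5p, -1.23 ± 0.24 for the Hox-cluster miRNA miR-196a-5p and -1.13 ± 0.34 for miR-130b-3p (SE, n = 4 per group). miR-7667-3p was well above background on 1 LPS array and miR-218-5p on 2, so the sizes of their differences and their likeness to miR-181b-5p depend on the floor. With a floor 2 times as high their differences were -0.43 and -0.53, and with one at 0.5 of its height -1.57 and -1.43. The measure picks up the gap between the groups as well as the pattern within them.

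Other miRNAs of the pathways in which miR-181 is known to act had differences in both directions. For these lists and the marker lists below, rose and fell mean higher or lower with LPS at a limma adjusted p under 0.05. Of 17 miRNAs linked to Toll-like receptor 4 and NF-κB signalling, 14 were tested: 1 rose, 0 fell, 6 had a lower mean with LPS, and the median was 0.22. The one that rose was miR-155-5p, which NF-κB itself induces, at 1.09 ± 0.24 (SE; limma adjusted p = 0.0325), and next by p came miR-199a-5p at -1.03 ± 0.28 (adjusted p = 0.0640). Of 15 miRNAs of lymphocyte development and activation, 13 were tested: 2 rose, 0 fell, 6 had a lower mean with LPS, and the median was 0.04. These were miR-155-5p again and the leukocyte miRNA miR-142a-3p, at 1.23 ± 0.26 (adjusted p = 0.0325). Over all 470 miRNAs, 2.55% were called higher. Both calls held without LPS replicate 1 or LPS replicate 4 and were lost without any other single array (adjusted p up to 0.106 for miR-155-5p and 0.0974 for miR-142a-3p). miR-142a-3p lay near the floor on the cesarean arrays (mean 4.06), so the size of its difference depends on the floor. That difference was 0.53 (limma adjusted p = 0.195) with a floor 2 times as high and 1.38 with one at 0.5 of its height. Whether these lists differ from the family was not tested.

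Markers of other cell types moved with the groups in part. Over all 470 tested miRNAs, 2.34% fell and 2.55% rose. Of 8 neural miRNAs, 3 were tested and 2 fell: miR-9-3p at -3.34 ± 0.74 (SE; limma adjusted p = 0.0325) and miR-218-5p (adjusted p = 0.0467), while miR-128-3p differed by -0.26 ± 0.54 (adjusted p = 0.822), a sign that turned under 3 processing alternatives. miR-9-3p was at the floor on 3 of the 4 LPS arrays, so the size of its difference depends on the floor: it was -2.59 (adjusted p = 0.129) with a floor 2 times as high and -4.09 with one at 0.5 of its height. The call of miR-9-3p held without cesarean replicate 1 or LPS replicate 1 and that of miR-218-5p without LPS replicate 1, and each was lost without any other single array. The call of miR-218-5p held in only 1 of 21 alternatives of any kind. With a floor 2 times as high its difference was -0.53 (limma adjusted p = 0.268). The summed linear signal of the 3 ran from 139 to 1111 on the cesarean arrays and from 43.8 to 123 on the LPS arrays. On LPS replicates 2 and 4, miR-9-3p and miR-218-5p were both at the floor, so the sums there are mostly floor. Cesarean replicate 1, which had the highest miR-181b-5p and miR-181d-5p, was the array with all 8 neural miRNAs well above background. The other cesarean arrays had 3 to 6 and the LPS arrays 1 to 3. miR-9-5p, miR-124-3p, miR-219a-5p, miR-137-3p and miR-129-5p were not well above background on any LPS array or on cesarean replicates 3 and 4. Without cesarean replicate 1 the difference was -1.52 for miR-181b-5p, -1.18 for miR-181d-5p and -1.03 for miR-181a-5p. These values come from the contrast by which the family was chosen, and the other cesarean arrays still had miR-9-3p between 6.45 and 6.97. The part of neural miRNAs in the family's result was not tested.

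In the remaining marker lists no miRNA fell, and the lists differed in how many rose, beside 2.55% of all 470 tested miRNAs. By the mean alone, 5 epithelial, 3 erythroid and 4 striated muscle miRNAs were higher with LPS and 0 lower. Of the tested leukocyte miRNAs, 2 had a higher and 1 a lower mean. Of 5 leukocyte miRNAs 3 were tested and 1 rose (miR-142a-3p), with summed signals from 685 to 889 on cesarean and 629 to 904 on LPS arrays. Of the epithelial miRNAs 3 of 5 rose (miR-200c-3p at 1.42 ± 0.23, miR-200a-3p at 1.23 ± 0.30, miR-200b-3p at 1.08 ± 0.25; SE), with summed signals of 728 to 981 on cesarean and 1441 to 2240 on LPS arrays. Of 3 erythroid miRNAs 1 rose (miR-144-3p), while 0 of 4 striated muscle miRNAs passed. Of these calls, miR-200c-3p was lost without cesarean replicate 3 alone. That of miR-144-3p was lost without any of 4 arrays (cesarean replicates 1 to 3 and LPS replicate 2). Those of miR-200a-3p and miR-200b-3p were lost without any array other than LPS replicates 1 and 4. miR-144-3p was at the floor on all 4 cesarean arrays, so the size of its difference (1.14 ± 0.20, SE) and its call depend on the floor. The difference was 0.14 (limma adjusted p = 0.366) with a floor 2 times as high. It was 2.14 with a floor at 0.5 of its height. The 1 tested endothelial marker, miR-126a-3p, differed by -0.09 ± 0.30 (adjusted p = 0.896), a sign that turned under 1 scaling alternative, and the liver miRNA miR-122-5p by 2.30 ± 1.07 (adjusted p = 0.211).

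The direction of the 3 tested members was the same in all 22 alternative analyses planned for them. miR-181b-5p ran from -1.81 to -0.77, miR-181d-5p from -1.58 to -0.59 and miR-181a-5p from -1.10 to -0.40, each with its smallest value under a background correction that adds 50 to every signal. In the values of the authors' deposited table, where normalization was done by them, miR-181b-5p stood at 6.56 on cesarean and 4.82 on LPS arrays, miR-181d-5p at 6.08 and 4.57, miR-181a-5p at 5.41 and 4.41, and miR-181c-5p at 3.37 and 3.03 (log2 means). These come from the same arrays and are no independent measurement. The adjusted p was under 0.05 in 18 of the 22 for miR-181b-5p, in 7 for miR-181d-5p and in 2 for miR-181a-5p, counts that describe how the calls depend on the processing and support nothing about a family chosen by this contrast.

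**Figure D5:**
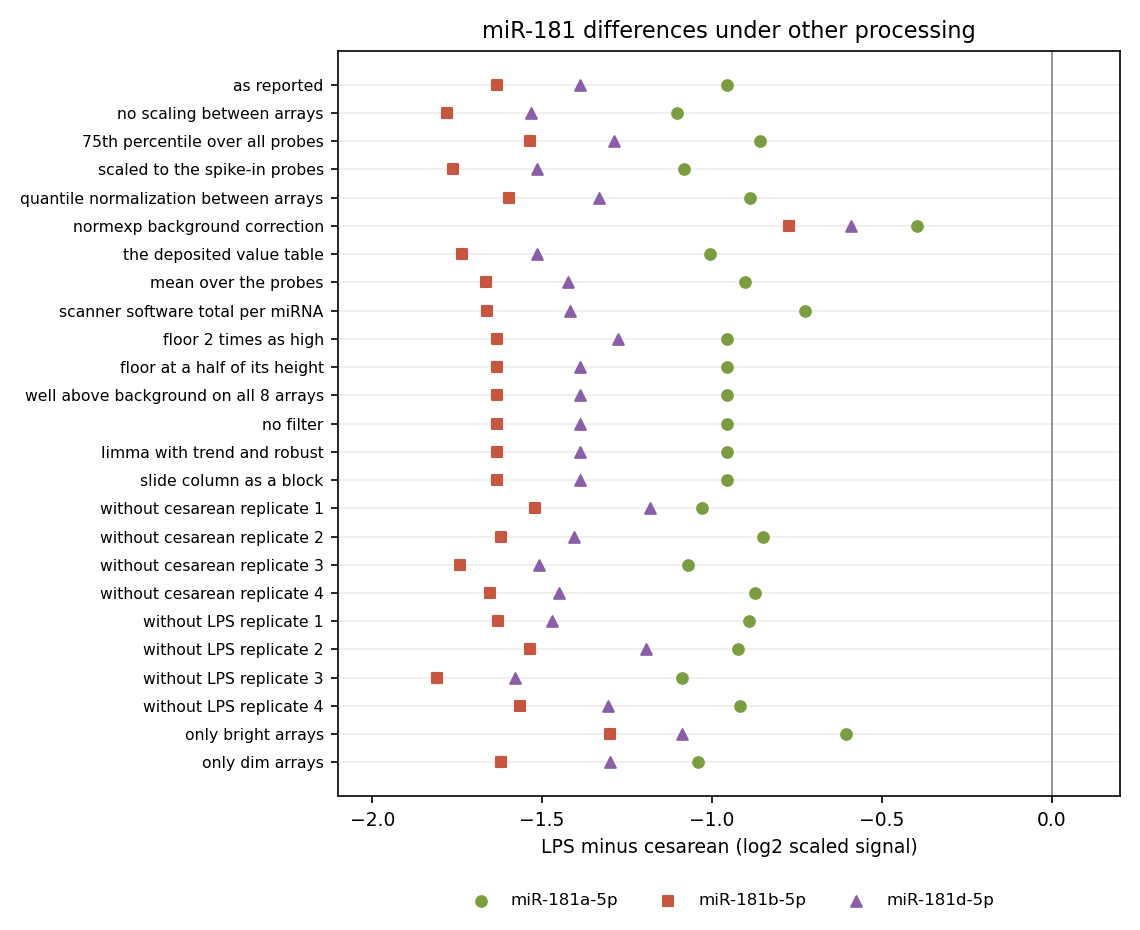
Difference, LPS minus cesarean, in log2 scaled signal for miR-181a-5p (circles), miR-181b-5p (squares) and miR-181d-5p (triangles) as reported and under each other analysis, including each array left out in turn and, in the last lines, only the bright or only the dim arrays. All points lie below 0, and the order of the 3 members is the same on every line, with miR-181b-5p lowest.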

How the data were processed

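The spot intensity values were, per the file headers, made with Agilent Feature Extraction 10.7.1.1 (the submitters' processing notes name 9.1), background-subtracted and not normalized between arrays. Labelling with Cy3 is described in the labels' protocols as linear amplification to cRNA, a procedure for messenger RNA, so how the miRNAs were labelled is unclear. The deposited value table holds log2 values normalized by the authors by a method not given in the sources used here. Each column matched the scanner file of the array it names (over 336 miRNAs, r ran from 0.958 to 0.964), and it served as an alternative.

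Control spots and spots with outlier marks were left out. On each array, a probe was taken as well above background where the scanner software so marked a share of 0.5 or more among the spots kept. Probe means were divided by each array's 75th percentile, taken over 618 probes that all 8 arrays detected, put on a common scale, raised to a floor of 13.5 (3.75 in log2) and log2-transformed, and the brightest probe stood for each miRNA. The 470 miRNAs well above background on at least 3 of 4 arrays of either group entered limma 3.58.1 (lmFit and eBayes, R 4.3.3, two-sided, Benjamini-Hochberg, threshold 0.05), which was tested on simulated data. The number of arrays limits the precision.

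Members, lists and alternatives were chosen with earlier results of these data known. Outside the family, the text names the 5 miRNAs most like miR-181b-5p, those of the pathway lists that passed or had one of the 2 smallest p, and, chosen after their values were seen, the called, lone or neural members of the marker lists. Sequences came from RefSeq (GRCm38.p6) and the probe annotation (mm9). Python 3.11.15 with pandas 2.3.3 and matplotlib 3.10.9 was used.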

Additional observations from a re-analysis of the deposited data

Results flagged for a closer look

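The level of miR-181a-5p on LPS replicate 3, at 5.66, stood apart from the other 3 LPS arrays, which lay between 5.07 and 5.17. The gap to the nearest array was just over the limit of Dixon's test at the 95% level for 4 values, a limit that chance passes in about 1 group in 20. Each of the 4 members of the 5′ arm was examined in each group, so chance passes it somewhere more often than that. The same array was also the highest of its group for miR-181b-5p and miR-181d-5p, without passing that limit, and the brightest LPS array before scaling. Without it the difference of miR-181a-5p was -1.09, against -0.96 with it.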

How the results depend on the processing

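The count of 2 members past the threshold fell to 0 in each of 4 analyses (no scaling, spike-in scaling, no filter, slide column as block), and it was 1 with the 75th percentile over all probes, with quantile normalization, with totals from the scanner software and with a floor 2 times as high. It was 3 with the mean over the probes. Leaving out each array in turn gave 1 to 3, with 3 without LPS replicate 1 and 1 (miR-181b-5p) without any other single array. Over all 470 miRNAs the 23 calls became 1 without scaling, 1 with the spike-in probes, 1 with the column block, 14 with the percentile over all probes, 37 with quantile normalization and 6 with the software's total, and without single arrays they ran from 3 to 79. Without scaling the median difference of all miRNAs was -0.20, and the miR-181b-5p difference -1.78. With normexp background correction the median of the 3 members moved from -1.39 to -0.59, with miR-181b-5p at -0.77, miR-181d-5p at -0.59 and miR-181a-5p at -0.40. This correction adds 50 to every signal, which by construction shrinks differences of dim miRNAs. The median of the 3 ran from -1.58 to -1.18 over the arrays left out. Restricted to the bright arrays, an alternative added after seeing the data, miR-181b-5p was -1.30 and miR-181a-5p -0.61. Outside the family, miR-126a-3p turned to 0.011 with the percentile over all probes and to 0.14 and 0.0071 without cesarean replicate 2 and LPS replicate 4, and ran from -0.24 to 0.14 over the arrays left out. miR-128-3p turned to 0.032 with normexp, 1.65 with the software's total, 0.046 with a floor 2 times as high, and 0.053 and 0.064 without LPS replicates 2 and 4, and ran from -0.75 to 0.064 over the arrays left out. The cause of these changes was not tested. The other called miRNAs named here kept their direction in every alternative, and each of the 11 lost its call in at least 4. The call of miR-218-5p held in only 1 of 21. No paired analysis was possible because no label ties an LPS sample to a cesarean sample, so that the column block, with 1 array of each group per column, pairs only positions on the slide.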
